A study of Homo sapiens with 18 samples.

Results

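Messenger RNA of 6 genes of kidney tubule ion transport and of the tight junction was followed: SCNN1A, FXYD2, ATP1B1, CLDN1, CLDN2 and TJP1, out of 27064 genes in the summed table. The genes were picked by name, with their levels under each hairpin and in the controls of these same libraries already known. Their levels and changes are therefore given as a description, with standard errors and 95% intervals. Calls from the fit across all genes are counted once, beside the share of all genes called, and no test of these 6 genes is read. The cells were of the established line 786-O, which comes from a clear-cell carcinoma of the kidney and has no working VHL. Small hairpin RNAs were used to lower either USP13, a deubiquitinating enzyme, or ZHX2, a zinc-finger and homeobox protein of the nucleus. Against USP13 there were 2 hairpins, sh50 and sh52, and against ZHX2 there were sh43 and sh45; each experiment had shCtrl control libraries of its own, and each of the 6 groups had 3 libraries. Every group is the same cell line with a hairpin in it, so that no group is untreated, and the time between hairpin delivery and RNA extraction is not given in the sources used here. Whether replicates were separate cultures is not stated, so that standard errors and p-values cover the spread among the libraries alone, which may be technical.

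The targeted genes were checked first, in CPM, each gene's count relative to the library's total count after TMM scaling. USP13 stood at 31.8 to 36.9 CPM in its 3 control libraries, at 16.8 to 20.5 under sh50 and at 14.9 to 18.1 under sh52. ZHX2 stood at 340.3 to 344.2 CPM in its controls, at 38.6 to 43.4 under sh43 and at 79.6 to 90.8 under sh45. A treatment note lists hairpins 43 and 45 under USP13, whereas titles and characteristics list them under ZHX2; it was ZHX2 RNA that was low in those libraries. Total estimated counts ranged from 11192561 to 16511290 per library. The share of counts from the mitochondrial ribosomal RNAs was 2.62% ± 0.079 (SD, n = 3) in the USP13 controls, 4.25% ± 0.161 under sh50 and 3.69% ± 0.136 under sh52, and it was 1.25% ± 0.0722 in the ZHX2 controls, 1.54% ± 0.0307 under sh43 and 3.09% ± 0.26 under sh45. This share moved with every hairpin, and its part in the results below was not tested. All 8 markers of renal tubule and renal carcinoma cells were detected, with a sum of 4678 to 6361 CPM. The 6 endothelial markers summed to 0.435 to 3.97 CPM and the 6 fibroblast markers to 3.15 to 9.5 CPM, and the T cell marker CD3E was at 0 in all libraries. The 8 leukocyte markers summed to 19.2 to 62.7 CPM, most of it from CD68, a lysosomal protein that epithelial lines also make. Under sh43 the mean of CD68 was 17.1 CPM, beside sums of 19.9 to 20.9.

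Tubule cells move sodium from the urine side to the blood side in steps. The Na,K-ATPase of the basolateral membrane pumps sodium out of the cell, built from a catalytic alpha subunit, a beta subunit that carries the complex to the membrane (ATP1B1) and a small FXYD protein that tunes its affinity for sodium (FXYD2, the gamma subunit). In the distal tubule sodium enters from the urine through the epithelial sodium channel, whose alpha subunit is SCNN1A. Between the cells, tight junctions set what leaks past: claudins form the strands, CLDN1 as a sealing claudin and CLDN2 as the cation and water pore of the proximal tubule, and TJP1 (ZO-1) is the cytoplasmic scaffold that ties the strands to actin.

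Coding sequence is shown for FXYD2, whose 2 counted transcripts are known for the gamma a and gamma b forms of the protein. Within the coding sequence they share all but their first bases, and their noncoding parts were not compared. The coding sequence of NM_001680 had 198 bases and that of NM_021603 had 192, of which the last 174 were identical. The first 60 coding bases of each follow, from GENCODE release 29, with the bases that are not shared in capitals.
FXYD2 NM_001680: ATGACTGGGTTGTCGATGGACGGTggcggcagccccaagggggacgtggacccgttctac
FXYD2 NM_021603: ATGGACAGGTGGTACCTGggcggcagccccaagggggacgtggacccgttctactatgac
Of the FXYD2 counts, 79% ± 0.0512 (SD, n = 3) were given to NM_001680 in the USP13 controls and 81.9% ± 0.977 in the ZHX2 controls. Under the hairpins this share was 79.1% ± 1.08 with sh50, 76.5% ± 2.09 with sh52, 80.4% ± 2.51 with sh43 and 80.8% ± 0.853 with sh45. The large differences in FXYD2 between groups described next were thus carried by both transcripts. The counts of SCNN1A, CLDN2 and TJP1 were spread nearly evenly over their 3, 3 and 5 transcripts, so their shares hold little information on isoforms. FXYD2 also shares its coding exons with the read-through transcript FXYD6-FXYD2, to which 168 to 1576 counts per library were assigned, and the FXYD2 value is uncertain by that division.

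Promoter windows are shown for the 3 genes that the ZHX2 hairpins left furthest apart among those with an entry: ATP1B1, which was lower, and CLDN1 and CLDN2, which went opposite ways. Each is the 250 bases before the gene's first listed start in RefSeq, build GRCh38.p14, with matches in capitals. The motifs searched on both strands were the TATA box TATAAA with its variant TTTAAA, the CCAAT box, the GC box GGGCGG, the hypoxia response core ACGTG and the E-box CACCTG of SNAI and ZEB factors. Positions count from the start site to the leftmost base of the match.
ATP1B1, chr1:169106440-169106689, plus strand: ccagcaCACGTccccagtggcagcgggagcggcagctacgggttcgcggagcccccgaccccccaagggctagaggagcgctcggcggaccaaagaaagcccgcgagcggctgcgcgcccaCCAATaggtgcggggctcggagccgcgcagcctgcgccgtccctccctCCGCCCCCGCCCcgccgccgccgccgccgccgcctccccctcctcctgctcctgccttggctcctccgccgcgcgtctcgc
CLDN1, chr3:190322447-190322696, minus strand: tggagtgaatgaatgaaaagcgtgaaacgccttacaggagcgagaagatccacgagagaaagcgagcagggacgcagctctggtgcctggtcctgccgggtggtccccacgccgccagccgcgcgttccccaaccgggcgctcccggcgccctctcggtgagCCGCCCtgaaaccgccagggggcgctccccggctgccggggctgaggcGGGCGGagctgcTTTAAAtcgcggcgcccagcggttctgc
CLDN2, chrX:106899914-106900163, plus strand: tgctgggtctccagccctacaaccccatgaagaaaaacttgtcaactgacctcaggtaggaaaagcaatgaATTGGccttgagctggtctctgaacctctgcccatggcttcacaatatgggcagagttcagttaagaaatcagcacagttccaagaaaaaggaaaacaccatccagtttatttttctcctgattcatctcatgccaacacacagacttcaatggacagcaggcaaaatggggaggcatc
The ATP1B1 window was 77.6% G and C and held 2 adjoining GC boxes, a CCAAT box and a hypoxia response core. The CLDN1 window was 68.8% G and C, with 2 GC boxes and a TTTAAA variant at -28. The CLDN2 window was 46% G and C and held a CCAAT box, and the window before its second start held no match. Over all 35116 windows of this length the median was 58% G and C, and a GC box was found in 42.6%, a CCAAT box in 32%, TTTAAA in 11.3% and the hypoxia response core in 18.5%. A match or its absence is a description of these letters only.

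In the control libraries the 6 genes spanned a wide range of levels, compared here as the authors' TPM, which corrects for transcript length. In the ZHX2 controls FXYD2 was the most abundant at 2054 TPM ± 11 (SD, n = 3), followed by ATP1B1 at 555 ± 21.4 and CLDN2 at 75.2 ± 4.05. CLDN1 followed at 22.7 ± 2.31, TJP1 at 16.9 ± 1.65 and SCNN1A at 8.11 ± 0.299, and the libraries of no neighbours in this order overlapped. In all 3 groups of the USP13 experiment the order was FXYD2, ATP1B1, CLDN2, TJP1, SCNN1A and CLDN1, again with no overlap between neighbours. CLDN1 was at the bottom there, with 1.18 TPM ± 0.141 in the controls. The order changed under the ZHX2 hairpins, where CLDN1 (66.8 TPM ± 1.28) stood above CLDN2 (45.8 ± 1.41) with sh43, while with sh45 the libraries of CLDN2 (37.1 ± 0.977) and CLDN1 (36.5 ± 0.654) overlapped.

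**Figure D1:**
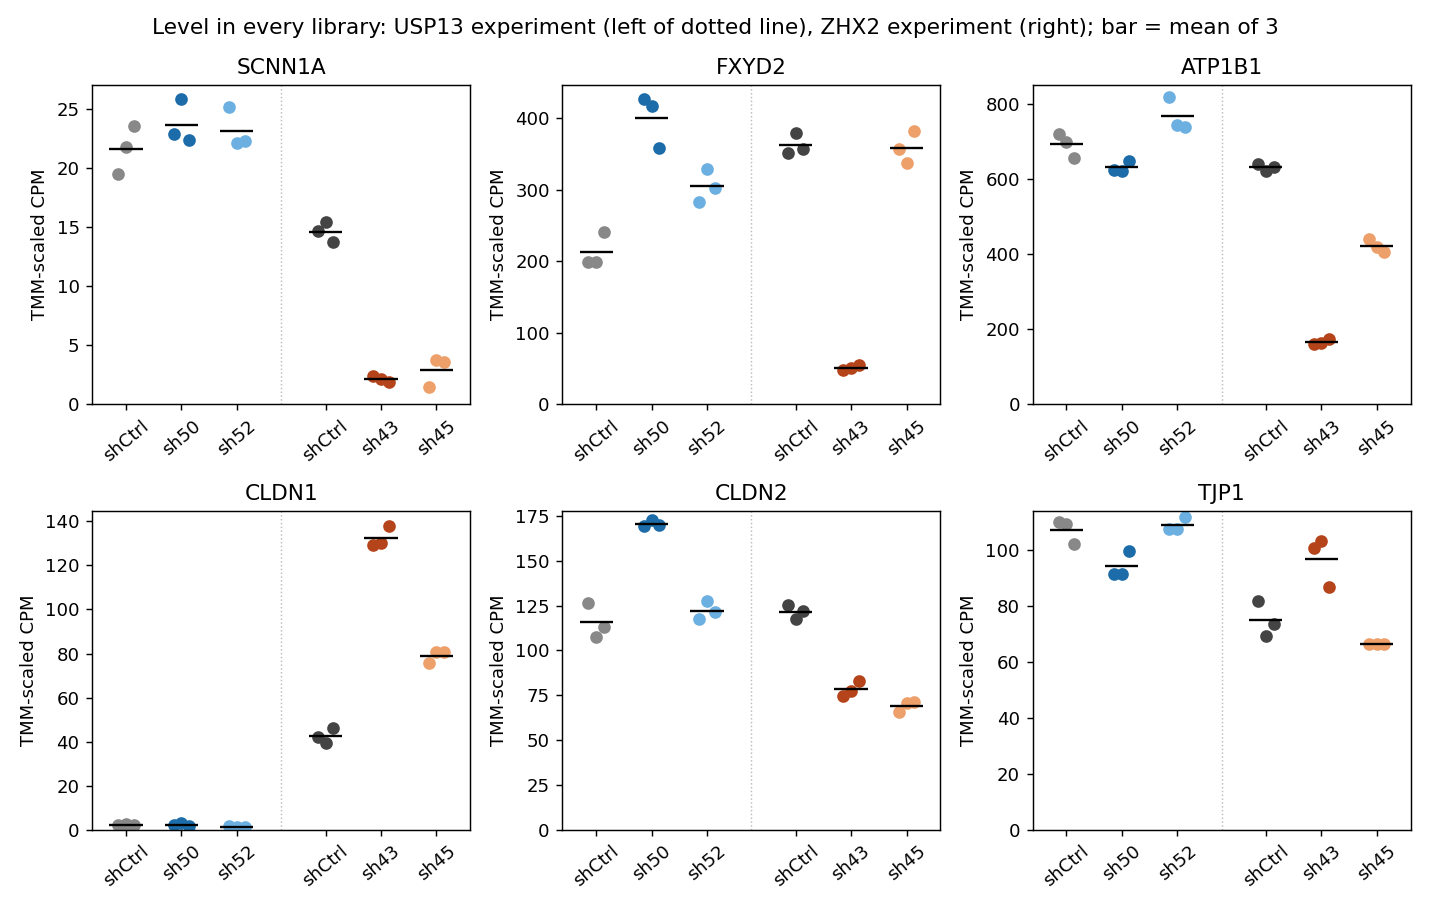
TMM-scaled CPM (vertical axis, linear and starting at 0) of each gene in every library, grouped by hairpin, with the USP13 experiment left and the ZHX2 experiment right of the dotted line and a bar at the mean of 3. FXYD2 and ATP1B1 are lowest in the sh43 libraries, SCNN1A is low under both ZHX2 hairpins, CLDN1 is highest under sh43, and CLDN1 is close to 0 throughout the USP13 experiment.

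SCNN1A, the pore-forming alpha subunit of the sodium channel, was lower under both ZHX2 hairpins. Its level was 14.7, 15.5 and 13.7 CPM in the 3 ZHX2 control libraries, 2.38, 2.11 and 1.91 under sh43 and 1.44, 3.7 and 3.6 under sh45. All 6 hairpin libraries lay below all 3 controls, and the library sh45 replicate 1 was the lowest of all. The log2 change was -2.77 (SE 0.216) with sh43, which is 0.147 times the control, and -2.34 (SE 0.204) with sh45, 0.197 times the control. These low levels rest on 22 to 55 estimated counts per library, with wider standard errors than the other 5 genes had in the ZHX2 experiment. Under USP13 knockdown SCNN1A changed little and read 19.6, 21.8 and 23.6 CPM in the controls, 22.9, 25.9 and 22.4 under sh50 and 25.2, 22.1 and 22.3 under sh52. Those groups overlapped, with log2 changes of 0.13 (95% interval -0.08 to 0.35) and 0.10 (-0.12 to 0.32). The beta subunit SCNN1B had no count in any of the 18 libraries, a reading that allows up to 0.182 to 0.268 CPM depending on the library, and the gamma subunit SCNN1G had 1 count in a single sh45 library. LTBR, which lies on the opposite strand at SCNN1A, had 2737 to 4880 counts, against 22 to 380 for SCNN1A. Its part in the SCNN1A values was not tested.

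FXYD2, the gamma subunit of the Na,K-ATPase, was the member whose readings differed most between the hairpins of a gene. It stood at 351.5, 379.7 and 357.2 CPM in the ZHX2 controls and at 47.4, 50.9 and 55.3 under sh43, but at 356.9, 337.5 and 381.6 under sh45. The sh43 libraries were far below all others, while the sh45 libraries lay among the controls. The log2 change was -2.83 (SE 0.0596) with sh43, 0.141 times the control, and -0.02 (95% interval -0.12 to 0.09) with sh45. In TPM the sh45 libraries, at 1695 to 1821, lay below the ZHX2 controls, at 2041 to 2061, so the reading for sh45 depends on the measure. Both USP13 hairpins left FXYD2 higher: 198.6, 198.7 and 240.1 CPM in the controls, 427.5, 416.7 and 358.6 under sh50 and 283.4, 329.5 and 301.8 under sh52. No hairpin library reached down to the controls, and the log2 changes were 0.92 (SE 0.0729), or 1.89-fold, and 0.52 (SE 0.073), or 1.44-fold. FXYD2 lies within 1 region with AP000757.2, an antisense gene that was not counted, and these libraries do not mark the strand. DSCAML1, which overlaps FXYD2 on the same strand, had 150 to 1310 counts, and its part in the FXYD2 values was not tested.

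ATP1B1, the main beta subunit of the pump, was lower under both ZHX2 hairpins and to a greater extent under sh43. Its level was 638.9, 619.7 and 632.6 CPM in the ZHX2 controls, 160.5, 163 and 173.2 under sh43 and 439.3, 418.3 and 405.1 under sh45. The 3 groups did not overlap, and sh45 lay between control and sh43. The log2 change was -1.93 (SE 0.0456), or 0.263 times the control, with sh43 and -0.58 (SE 0.0433), or 0.668 times, with sh45. For USP13 the hairpins lay on opposite sides of the control, with 719.5, 699 and 655.3 CPM in the controls, 623.9, 619.4 and 648 under sh50 and 816.9, 743.6 and 737.6 under sh52. These shifts were small, with log2 changes of -0.13 (SE 0.05) and 0.15 (SE 0.05), although neither hairpin's libraries overlapped the controls in CPM. In TPM both overlapped them, with 497.3 to 546.9 under sh50 and 620.3 to 712.8 under sh52, against 537.7 to 621.8. NME7, which lies on the opposite strand at ATP1B1, had 195 to 533 counts, against 2179 to 11554 for ATP1B1.

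CLDN1, the sealing claudin, was the only one of the 6 that was higher under both ZHX2 hairpins. It read 42.1, 39.4 and 46.1 CPM in the ZHX2 controls, 129.1, 130.1 and 138 under sh43 and 75.6, 80.6 and 80.8 under sh45. The 3 groups did not overlap, with sh45 between the controls and sh43. The log2 change was 1.64 (SE 0.0654), or 3.11-fold, with sh43 and 0.89 (SE 0.0665), or 1.86-fold, with sh45. Across the USP13 libraries CLDN1 was low and thinly counted: 2.1, 2.63 and 2.23 CPM in the controls, 2.15, 3.27 and 1.74 under sh50 and 1.84, 1.13 and 1.44 under sh52, from 14 to 48 counts per library. The intervals of its log2 changes there were wide, -0.63 to 0.69 around 0.03 with sh50 and -1.36 to 0.05 around -0.66 with sh52. Without sh50 replicate 2 the sh50 value was -0.27, and without shCtrl replicate 1 it was -0.04.

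CLDN2, the cation pore of the proximal tubule, moved opposite to CLDN1 under the ZHX2 hairpins and was lower with both, a little more so with sh45. It read 125.4, 117.2 and 121.9 CPM in the ZHX2 controls, 74.6, 77.6 and 82.7 under sh43 and 65.6, 70.8 and 71.4 under sh45. Every hairpin library was below every control. The log2 change was -0.63 (SE 0.0603), or 0.644 times the control, with sh43 and -0.81 (SE 0.0607), or 0.57 times, with sh45. In the USP13 experiment CLDN2 was higher with sh50, at 169.3, 172.5 and 169.9 CPM against 126.2, 107.7 and 113 in the controls, while sh52 read 117.3, 127.4 and 121.2. The sh50 libraries were above all others and the sh52 libraries overlapped the controls, with log2 changes of 0.56 (SE 0.0614), or 1.48-fold, and 0.08 (95% interval -0.05 to 0.21). MORC4, on the opposite strand at CLDN2, had 446 to 1675 counts.

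TJP1, the scaffold ZO-1, changed least of the 6 in the ZHX2 experiment apart from FXYD2 under sh45. Its level was 81.9, 69.3 and 73.6 CPM in the ZHX2 controls, 100.9, 103.4 and 86.9 under sh43 and 66.7, 66.4 and 66.4 under sh45. In CPM the sh43 libraries were above and the sh45 libraries below every control. In TPM the sh43 libraries (18.2 to 22.1) overlapped the controls (15.2 to 18.5). The log2 change was 0.38 (SE 0.0693), or 1.3-fold, with sh43 and -0.17 (SE 0.0707), or 0.888 times, with sh45, and the latter was -0.10 without shCtrl replicate 1. In the USP13 experiment TJP1 read 110.2, 109.3 and 102.3 CPM in the controls, 91.7, 91.4 and 99.7 under sh50 and 107.8, 107.6 and 111.9 under sh52. In CPM the sh50 libraries lay just below the controls and the sh52 libraries overlapped them. The log2 changes were -0.19 (SE 0.0608) and 0.02 (95% interval -0.10 to 0.15). In TPM the sh50 libraries (18.5 to 21.4) also overlapped the controls (21.3 to 24.2).

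**Figure D2:**
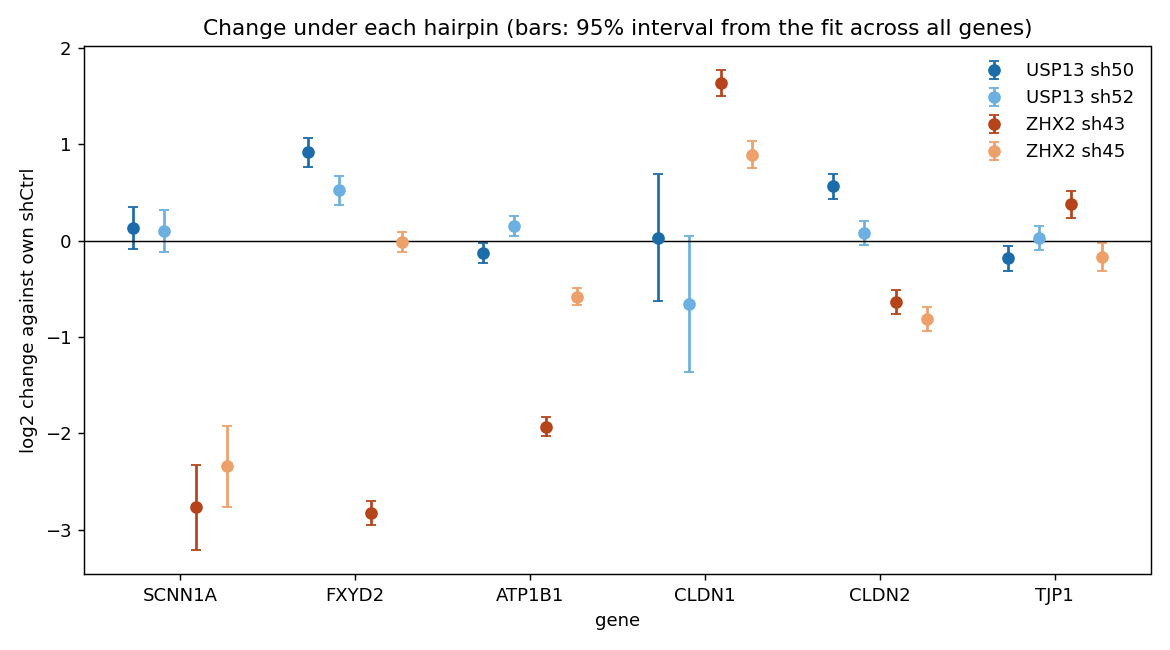
Log2 change of each gene against the shCtrl libraries of its own experiment (vertical axis), with 95% intervals from the fit across all genes, for USP13 sh50 and sh52 (blue) and ZHX2 sh43 and sh45 (orange). Values run from -2.83 for FXYD2 with sh43 to 1.64 for CLDN1 with sh43, and the widest intervals belong to CLDN1 in the USP13 experiment.

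Counted at an adjusted p under 0.05 (edgeR's quasi-likelihood test with Benjamini-Hochberg adjustment over all genes), 2 of the 6 genes were higher and 1 lower with sh50, where 21.5% of the 13708 genes tested were called, 10.2% of all genes higher and 11.3% lower. With sh52 1 was higher and 5 were not called, against 12% of all genes called, 5.45% higher and 6.57% lower. With sh43 2 were higher and 4 lower, against 68.8% of 13597 genes, 33.5% higher and 35.3% lower. With sh45 1 was higher and 4 lower, against 52.6%, 25.3% higher and 27.3% lower. FXYD2 was called higher with both USP13 hairpins, as were 3.26% of genes, while SCNN1A, ATP1B1 and CLDN2 were called lower with both ZHX2 hairpins, as were 15.9%, and CLDN1 higher, as were 14.1%. In CPM, hairpin and control libraries did not overlap for 4 of the 6 genes with sh50 (38.2% of all genes) and 3 with sh52 (27.8%). The same held for all 6 with sh43 (70.3%) and 5 with sh45 (57.2%). Since the genes were chosen with these comparisons known, nothing is read from them. All 6 passed the low-count filter in both experiments. The call of TJP1 with sh50 was lost without sh50 replicate 1 or 2 or shCtrl replicate 1 or 2 (log2 change from -0.17 to -0.16). That with sh45 was lost without any 1 of the 3 sh45 libraries, shCtrl replicate 1 or 3, or sh43 replicate 1 (log2 change from -0.18 to -0.10). ATP1B1 was called lower with sh50 without sh52 replicate 1 (-0.13) or shCtrl replicate 3 (-0.17), and higher with sh52 without sh52 replicate 2 (0.17). In size, 1.49% of the tested genes had a larger absolute change than FXYD2 with sh43, 1.58% a larger one than SCNN1A with sh43, and 1% a larger one than SCNN1A with sh45.

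The hairpins of a gene share their control libraries, so the difference between them was taken directly. Between sh45 and sh43, FXYD2 was 2.81 higher on the log2 scale with sh45 (95% interval 2.69 to 2.93), and ATP1B1 was 1.35 higher (1.25 to 1.44). CLDN1 was lower with sh45 by a log2 difference of -0.74 (-0.87 to -0.62), TJP1 by -0.55 (-0.69 to -0.40) and CLDN2 by -0.18 (-0.30 to -0.05). For SCNN1A the interval of the difference, -0.12 to 0.98 around 0.43, covered 0. The ZHX2 RNA was itself lower with sh43 than with sh45, as the target levels above show, and hairpin identity and depth of knockdown cannot be told apart here. Between sh52 and sh50 the log2 difference was -0.39 (-0.54 to -0.25) for FXYD2, -0.48 (-0.61 to -0.36) for CLDN2, 0.28 (0.18 to 0.38) for ATP1B1 and 0.21 (0.08 to 0.33) for TJP1. For SCNN1A, at -0.03 (-0.25 to 0.18), and CLDN1, at -0.69 (-1.39 to 0.01), it covered 0. In bulk RNA, fewer cells that express a gene and less RNA per cell cannot be told apart.

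The share of each family's RNA that came from ATP1B1, FXYD2, SCNN1A, CLDN1 and CLDN2 was taken from TPM. ATP1B1 was 78.6% ± 1 (SD, n = 3) of the RNA of the 4 pump beta subunits in the ZHX2 controls, 44% ± 1 under sh43 and 68.3% ± 1.2 under sh45, with most of the rest from ATP1B3. FXYD2 was 92% ± 0.38 of the RNA of the 7 FXYD genes in those controls, 53.8% ± 2.9 under sh43 and 87.1% ± 0.29 under sh45, with most of the rest from FXYD5, also called dysadherin. Among the channel subunits, SCNN1A made up 57.5% ± 0.88 of the summed RNA in the ZHX2 controls, 23.1% ± 3.8 under sh43 and 14.8% ± 4.4 under sh45. Nearly all of the rest was SCNN1D, the delta subunit, named here after its values were seen.

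The sum over 23 claudins was 313.8 TPM ± 8.94 in the ZHX2 controls, 450.2 ± 13.9 under sh43 and 257.7 ± 2.59 under sh45, and the libraries of the 3 groups did not overlap. With sh45 the ratio to control in TPM was 1.61 for CLDN1 and 0.494 for CLDN2, against 1.86 and 0.57 in CPM. The sum was not taken in CPM, so its fall with sh45 may depend on the measure. CLDN1 took 7.23% ± 0.61 of the summed TPM in the controls, 14.8% ± 0.18 under sh43 and 14.2% ± 0.39 under sh45. CLDN2 took 24% ± 0.62, 10.2% ± 0.2 and 14.4% ± 0.52. The ratio of CLDN1 to CLDN2 was 0.302 ± 0.0211 in the controls, 1.46 ± 0.0293 under sh43 and 0.984 ± 0.00922 under sh45, so that both hairpins brought CLDN1 to the level of CLDN2 or above it. In the USP13 experiment CLDN1 stayed below 1% of the claudin RNA, at 0.487% ± 0.15 under sh50, and CLDN2 took 29.6% ± 2.3 in the controls, 40.7% ± 0.88 under sh50 and 33.2% ± 1.8 under sh52.

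**Figure D3:**
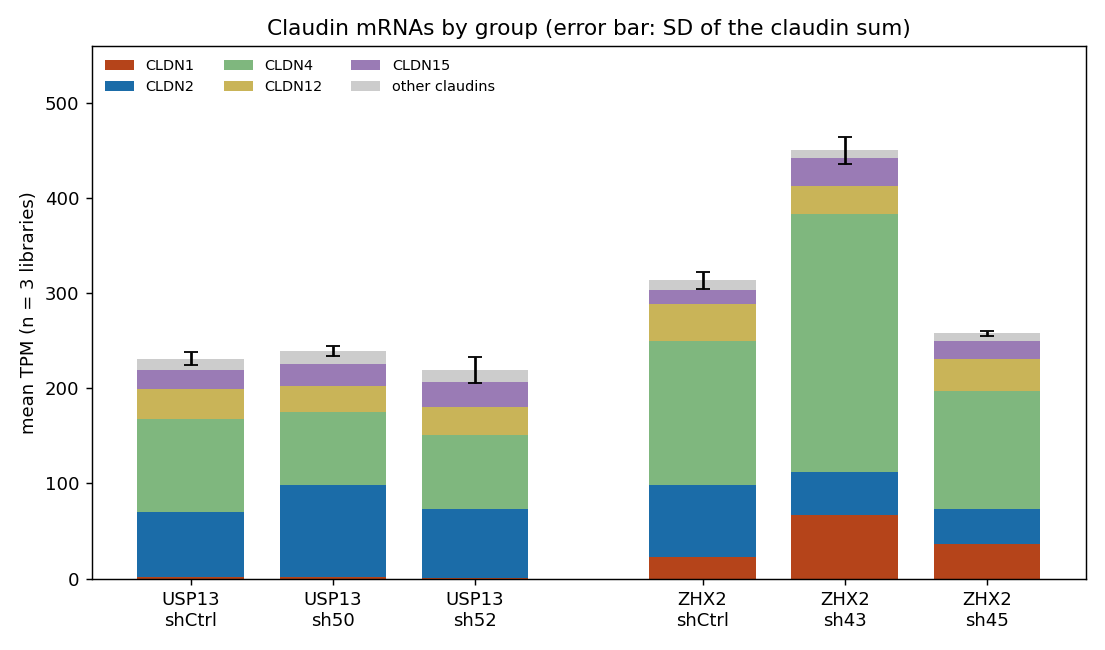
Mean TPM of the claudin mRNAs in each group (stacked bars from 0, 3 libraries per group), with the SD of the sum as the error bar and the 5 named claudins in colour. In the ZHX2 experiment the CLDN1 segment grows from 22.7 to 66.8 with sh43 and 36.5 with sh45 while the CLDN2 segment shrinks from 75.2 to 45.8 and 37.1, and in the USP13 experiment CLDN2 is tallest with sh50 (97.2).

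The other genes of these pathways were described from 6 lists, with 115 genes in the table. In the USP13 experiment 76 of them were measured: 7 rose and 15 fell with sh50 (median log2 change -0.06, against 0.003 over all genes), and 7 rose and 9 fell with sh52 (median -0.04, against -0.0008). In the ZHX2 experiment 73 were measured: 18 rose and 28 fell with sh43 (median -0.10, against -0.02 over all genes), and 20 rose and 26 fell with sh45 (median -0.08, against -0.007). The share of measured list genes called was 28.9% with sh50, 21.1% with sh52 and 63% with both sh43 and sh45, against 21.5%, 12%, 68.8% and 52.6% of all genes. All p-values in this and the next paragraphs are from edgeR's quasi-likelihood test, adjusted over all genes. Without shCtrl replicate 2 only 3 rose with sh50, without shCtrl replicate 1 only 4 rose with sh52, and without sh52 replicate 3 only 5 fell with it.

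**Figure D4:**
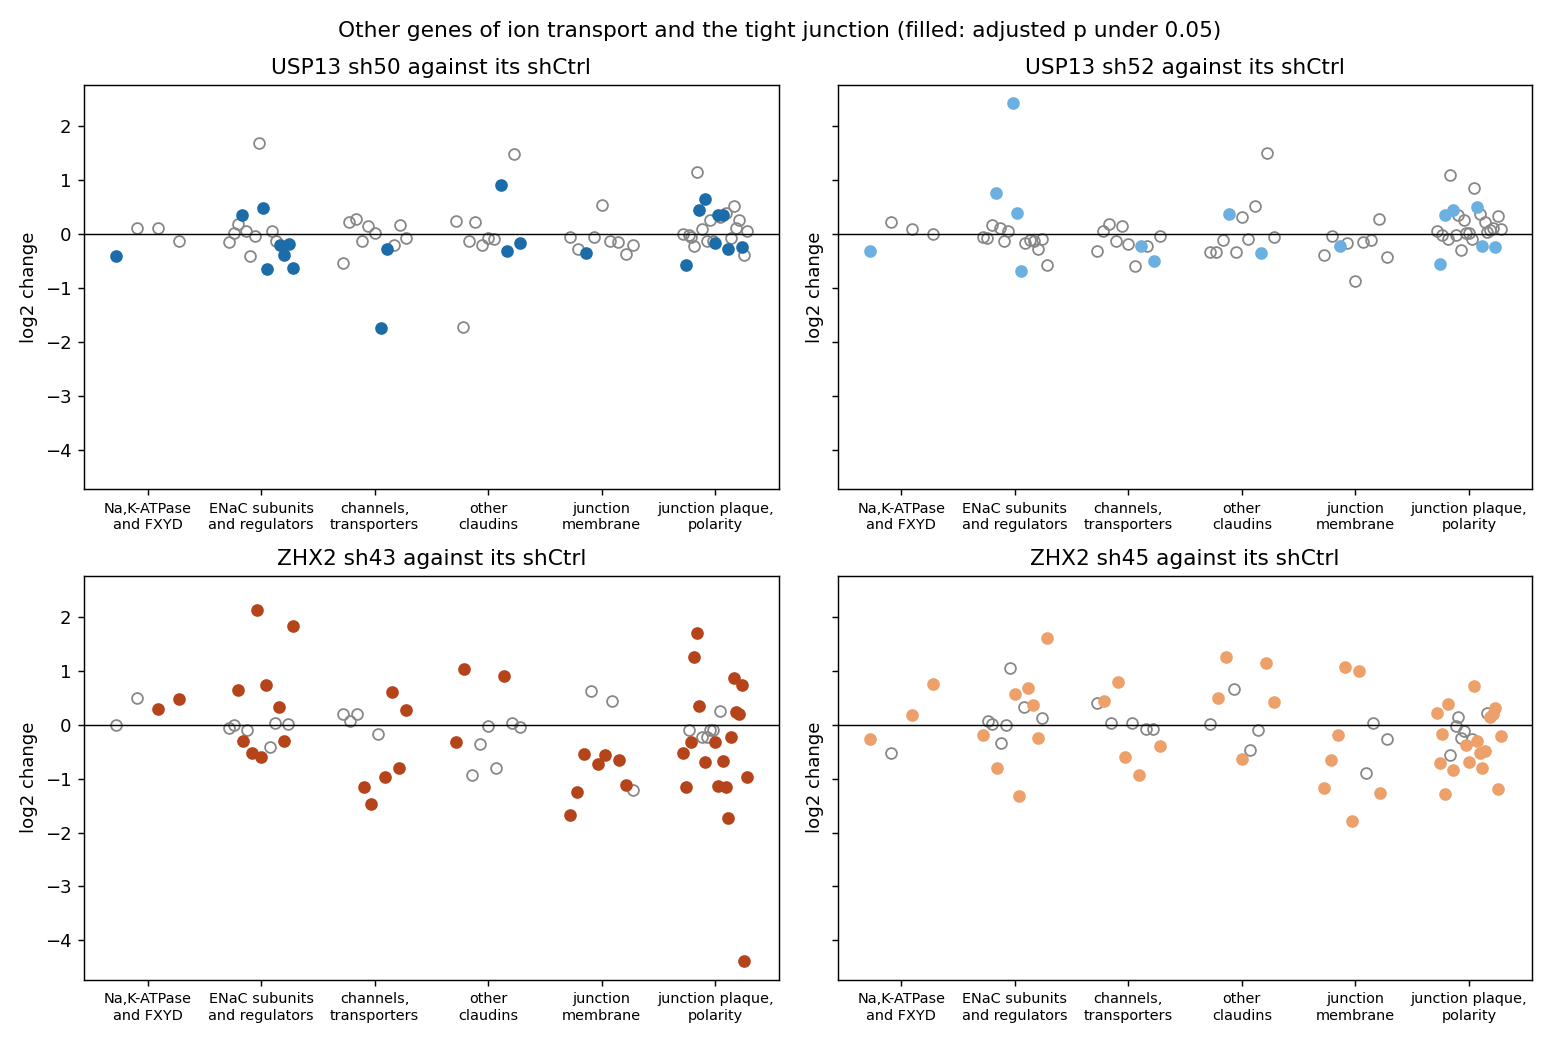
Log2 change against own shCtrl (vertical axis) of the other genes of 6 pathway lists under each hairpin, each point a gene and filled where the adjusted p is under 0.05. Under the ZHX2 hairpins the junction membrane and junction plaque lists hold most of the filled points below 0. These lists also hold 10 and 25 of the 73 genes measured there. The lowest point is TJP3 with sh43, which rests on a few counts.

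Among the other Na,K-ATPase and FXYD genes, the beta subunit ATP1B3 rose with sh43 by 0.30 (adjusted p = 1.12e-05) and with sh45 by 0.19 (adjusted p = 0.00328), opposite to ATP1B1. The rise with sh45 was not seen in TPM, where the sh45 libraries (143.8 to 154.4) overlapped the controls (144.5 to 156.3). FXYD5 rose with sh43 by 0.49 (adjusted p = 2.17e-07) and with sh45 by 0.75 (adjusted p = 1.54e-10), while FXYD2 in CPM was lower only with sh43.

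Among the sodium channel's subunits and regulators, 5 of 15 measured genes rose and 4 fell with sh43, and 4 rose and 4 fell with sh45. The shares called, 60% with sh43 and 53.3% with sh45, were near the 68.8% and 52.6% of all genes. WNK4, a kinase that regulates salt transport in the distal tubule, rose with both ZHX2 hairpins, by 1.83 (SE 0.158) and 1.61 (SE 0.161) on the log2 scale. It fell with sh50 by 0.63 (adjusted p = 0.0351), a call lost without any 1 of the 3 sh50 libraries or without shCtrl replicate 2 or 3 (adjusted p from 0.055 to 0.189). SGK1, the aldosterone-induced kinase that keeps the channel at the membrane, rose with sh43 by 0.73 (adjusted p = 2.36e-05) and fell with sh45 by 1.33 (adjusted p = 1.22e-07), although SCNN1A was lower with both. It fell with both USP13 hairpins, by 0.65 with sh50 (adjusted p = 0.000811) and 0.69 with sh52 (adjusted p = 0.000943), where SCNN1A overlapped its controls. NEDD4L, the ubiquitin ligase that removes the channel, fell with sh43 by 0.31 (adjusted p = 8.25e-05) and with sh45 by 0.80 (adjusted p = 4.58e-11). PRSS8, the protease prostasin that activates the channel, rose with sh43 from 2 to 6 counts per library to 12 to 22 (adjusted p = 0.00101) and with sh52 (adjusted p = 0.0133), the latter not without sh52 replicate 1 (adjusted p = 0.12) or shCtrl replicate 1 (adjusted p = 0.0789).

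Of the other tubule channels and transporters, 2 of 10 rose and 4 fell with sh43, and 2 rose and 3 fell with sh45. The shares called, 60% with sh43 and 50% with sh45, were near the 68.8% and 52.6% of all genes. SLC4A4, the basolateral sodium bicarbonate cotransporter, fell with both ZHX2 hairpins, by 0.97 (SE 0.083) and 0.93 (SE 0.0826), and with both USP13 hairpins, by 0.28 with sh50 (adjusted p = 0.00263) and 0.23 with sh52 (adjusted p = 0.0189). The sh52 call was lost without sh52 replicate 2 or 3 or shCtrl replicate 1 (adjusted p from 0.0799 to 0.16). The potassium channel subunit KCNJ16 fell by 1.46 (SE 0.0767) with sh43 and by 0.60 (SE 0.0725) with sh45, the same order of hairpins as ATP1B1. KCNJ15, a related channel, fell by 1.16 with sh43 (adjusted p = 4.75e-10) and rose by 0.79 with sh45 (adjusted p = 5.58e-08). SLC12A3, the thiazide-sensitive cotransporter of the distal tubule, fell by 1.74 (SE 0.28) with sh50, and in the ZHX2 experiment it was under the count filter, with 6 to 14 counts in each control library and 0 or 1 in each hairpin library.

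Of the other claudins, CLDN4, the most abundant in most groups, rose with sh43 by 0.91 (SE 0.0514) and read -0.09 (SE 0.0524) with sh45. With sh45, CLDN4 lay below its controls in CPM (128.2 to 132.4 against 134.4 to 144.2), and further below in TPM (120.5 to 127.8 against 149.1 to 154.7). It fell with sh50 by 0.32 (adjusted p = 0.0211) and with sh52 by 0.35 (adjusted p = 0.0187), the calls being lost without shCtrl replicate 3, sh50 replicate 3 (sh50) or sh52 replicate 1 (sh52), with adjusted p from 0.0809 to 0.0971. CLDN15, a cation-pore claudin like CLDN2, rose with sh43 by 1.04 (adjusted p = 3.29e-09) and with sh45 by 0.50 (adjusted p = 0.000488), opposite to CLDN2. It rose with sh52 by 0.38 (adjusted p = 0.0216), a call lost without sh52 replicate 2 or 3 or shCtrl replicate 1 (adjusted p from 0.0559 to 0.145). Both CLDN9 and CLDN18 rose with sh45 from low levels, CLDN9 from 1.21 to 2.68 CPM (adjusted p = 0.00273) and CLDN18 by 1.26 (adjusted p = 0.0209), and the latter call was lost without sh45 replicate 1, shCtrl replicate 2 or shCtrl replicate 3 (adjusted p from 0.0517 to 0.107).

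Of the other membrane proteins of the junction, 7 of 10 fell and 3 were not called with sh43, where 35.3% of all genes fell, and 2 rose and 5 fell with sh45, where 25.3% of all genes rose and 27.3% fell. CRB3, an apical polarity protein, fell by 1.67 (SE 0.183) and 1.18 (SE 0.173), and MARVELD2, the tricellulin of contacts where several cells meet, fell from 2.73 CPM ± 0.377 to 1.22 ± 0.528 and 1.13 ± 0.215. CXADR fell by 1.25 (SE 0.135) and 0.65 (SE 0.127), and ILDR2 by 0.73 (SE 0.12) and 1.79 (SE 0.133). F11R (JAM-A), an adhesion protein that TJP1 binds, fell with all 4 hairpins, by 0.35, 0.23, 0.54 and 0.20 with sh50, sh52, sh43 and sh45, the sh52 call being lost without sh52 replicate 3 (adjusted p = 0.0808) or shCtrl replicate 2 (adjusted p = 0.0857). Occludin, OCLN, had 2 to 12 counts per library in the ZHX2 experiment and was not called there, but without sh43 replicate 2 it was called lower with sh43 (adjusted p = 0.00752).

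Of the 25 plaque and polarity proteins, 7 rose and 12 fell with sh43, where 33.5% of all genes rose and 35.3% fell. Under sh45 6 rose and 12 fell, where 25.3% of all genes rose and 27.3% fell. TJP3 (ZO-3) had 26 to 32 counts in each ZHX2 control library, 0, 1 and 3 under sh43 and 8 to 20 under sh45, and fell with both (adjusted p = 1.83e-07 and 0.00784), the sh45 call being lost without sh45 replicate 2 (adjusted p = 0.0507). PATJ, a polarity scaffold, fell by 1.73 (SE 0.0827) with sh43 and 0.80 (SE 0.0767) with sh45, again in the hairpin order of ATP1B1. It fell with sh50 by 0.27 (adjusted p = 0.00123) and with sh52 by 0.23 (adjusted p = 0.0117), the latter call being lost without sh52 replicate 3 or shCtrl replicate 1 (adjusted p = 0.074 and 0.105). AMOTL2, an angiomotin family protein of the junction, fell by 0.32 with sh43 (adjusted p = 6.48e-07) and by 1.29 with sh45 (adjusted p = 2.64e-18), and rose by 0.35 with sh52 (adjusted p = 3.75e-05). CGN, cingulin, a plaque protein that binds ZO-1, rose by 1.69 with sh43 (SE 0.279) and read -0.56 (SE 0.354) with sh45.

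The control libraries of the experiments differed in several of the 6 genes. CLDN1 was 19.2 times higher in the ZHX2 controls than in the USP13 controls (22.7 TPM ± 2.31 against 1.18 ± 0.141), and FXYD2 was 1.67 times higher (2054 ± 11 against 1226 ± 109). SCNN1A was 1.41 times and TJP1 1.36 times higher in the USP13 controls, while the libraries of ATP1B1 and CLDN2 overlapped. ZHX2 itself was 2.33 times higher in the ZHX2 controls. Experiment and control batch cannot be told apart, so hairpins were set only against their own controls.

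The genes most like each member in pattern were found over the 18 libraries after each experiment's own mean was removed, among 14199 genes, as Pearson's r of log2 CPM. The libraries share hairpin groups, and the ZHX2 groups dominate the spread, so r is a description. SCNN1A was most like TMEM86A (0.98), CCDC183-AS1 (0.96) and HOXA3 (0.96), and FXYD2 was most like EIF4A2, FXYD6-FXYD2 and NRBP2 (0.99 each). The read-through FXYD6-FXYD2 shares coding exons with FXYD2, and reads that fit both are divided between them, so it is not an independent reading. ATP1B1 was most like RAB5B, KDM5B and SEMA5B (0.99 each), CLDN1 like LSM4 (0.96), CKS1B (0.93) and SAR1B (0.92), CLDN2 like BRD3 (0.95), PTMA (0.92) and MVB12B (0.92), and TJP1 like ARCN1 (0.96), RND3 (0.95) and TXNDC9 (0.94). No member was among the nearest genes of another. Between members, r was 0.89 for FXYD2 with ATP1B1, -0.89 for FXYD2 with TJP1 and -0.86 for ATP1B1 with CLDN1, and 0.37 for FXYD2 with CLDN2.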

How the data were processed

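RNA-seq was analysed in 18 libraries of 786-O cells, 3 in each of 6 groups taken from the sample titles and characteristics. Each deposited file holds 1 library quantified by Salmon per RefSeq transcript, per the file headers, with length, effective length, TPM (abundance per transcript length, which the authors' tool sets to an equal sum in all libraries) and estimated count (not scaled for depth). The submitters' processing notes list Salmon 0.11.3, STAR 2.5.2b, cutadapt 1.12, DESeq2 1.14.1 and build hg19, without their roles. All deposited estimated counts were whole numbers within a tolerance of 1e-06. Salmon divides reads that fit several transcripts between them.

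Estimated counts were rounded and summed to genes. Of 60422 listed transcripts, 59301 were named from the RefSeq gene table and 684 from GENCODE release 29; the 437 unnamed ones (0.0854% to 0.12% of a library) were left out. Low genes were taken out by filterByExpr of edgeR. Differences were fitted with edgeR 4.0.16 (R 4.3.3; TMM scaling, quasi-likelihood F-test, 1 mean per group, the 9 libraries of an experiment in 1 fit), with p-values adjusted by Benjamini and Hochberg over all genes tested. The fit was tested on simulated data. Standard errors and 95% intervals come from the same fit. TPM was used only to compare genes and in an alternative, and deposited effective lengths only as offsets in an alternative. Transcript shares are given without a test, since the 6 genes were chosen on the same comparisons.

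The 6 genes and the gene lists were chosen with earlier results of these data known. From each list at most 4 genes were named, those with the largest change among the genes past the threshold in any comparison, besides a few fixed names (ATP1B3, OCLN, F11R, SGK1 and NEDD4L), and for each of the 6 genes the 3 genes most like it in pattern. Some genes that this rule names are not reported here. Alternatives were upper-quartile scaling, DESeq2 1.42.0, no filter, a stricter filter, effective-length offsets, a replicate block, fewer or more libraries in the fit, and leaving out each library. Replicates of a group differed by more than counting noise, with a chi-square per degree of freedom of 2.33 to 6.68, and all were kept. The total estimated count per library, 11192561 to 16511290, sets the precision of low counts.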

Additional observations from a re-analysis of the deposited data

Results flagged for a closer look

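In CPM, ATP1B1 was the member whose USP13 hairpin libraries lay on opposite sides of the control. All 3 sh50 libraries were below and all 3 sh52 libraries above all 3 controls. In TPM the libraries of both hairpins overlapped the controls. The log2 difference, sh52 minus sh50, was 0.28 (95% interval 0.18 to 0.38). No test of this difference is given, because the gene was chosen with these values known. TJP1 did the same in the ZHX2 experiment in CPM, with every sh43 library above and every sh45 library below the controls. In TPM the sh43 libraries (18.2 to 22.1) overlapped the controls (15.2 to 18.5). The log2 difference, sh45 minus sh43, was -0.55 (95% interval -0.69 to -0.40), likewise given with no test.

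Among the other pathway genes, the named genes KCNJ15 and SGK1 were called in opposite directions by the ZHX2 hairpins. The share of all genes called in opposite directions was not counted, so whether this is unusual is not known. Of all genes, 68.8% were called with sh43 and 52.6% with sh45. For KCNJ15 the log2 difference, sh45 minus sh43, was 1.95 (edgeR, adjusted p = 6.2e-15), from 8.62 CPM ± 0.749 (SD, n = 3) with sh43 to 33.2 ± 2.51 with sh45, around 19.2 ± 0.847 in the controls. For SGK1 it was -2.06 (edgeR, adjusted p = 4.93e-12), from 13.2 CPM ± 0.424 to 3.16 ± 0.222, around 7.94 ± 0.635 in the controls. All 3 libraries of each group lay on the side given.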

How the results depend on the processing

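Of 24 values of the 6 genes, 17 kept their direction and their side of the threshold in all alternatives run (407 runs in all), as did 59 of 75 values of the other named genes. The number of the 6 genes called lower with sh50 was 1, became 2 in a fit of the hairpin and control libraries only, and ranged from 0 to 2 when libraries were left out. The number called higher with sh52 was 1 and became 2, with ATP1B1, under upper-quartile scaling, DESeq2, no filter, the stricter filter of at least 1 CPM in 3 libraries and a fit of all 18 libraries, and ranged from 1 to 2 when libraries were left out. TJP1 with sh45 lost its call under upper-quartile scaling, DESeq2 and the fit of all 18 libraries.

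With libraries left out, the other pathway genes called higher ranged from 3 to 10 with sh50 and from 4 to 7 with sh52, those called lower with sh52 from 5 to 10, and all genes called with sh52 from 990 to 1661. Values near 0 changed sign. FXYD2 with sh45 was 0.013 under upper-quartile scaling, 0.0017 in the fit of all 18 libraries and -0.056 to 0.032 with a library left out. With a library left out, CLDN1 with sh50 ranged from -0.27 to 0.23, TJP1 with sh52 from -0.0075 to 0.043, and OCLN from -0.47 to 0.29 with sh50 and from -0.73 to 0.067 with sh52. Differences in transcript share, in percentage points with a library left out, ranged from -0.494 to 0.504 for FXYD2 with sh50, from -0.138 to 0.711 for CLDN2 with sh45, and for TJP1 from -0.357 to 0.376 with sh52, -0.443 to 0.681 with sh43 and -0.675 to 0.449 with sh45.

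With deposited TPM in place of CPM, the ratio to control with sh45 was 0.857 for FXYD2, 0.579 for ATP1B1, 1.61 for CLDN1, 0.494 for CLDN2 and 0.769 for TJP1, and that of ATP1B1 with sh43 was 0.248; the cause of these shifts was not tested. Replicate numbers do not pair the libraries: deviations of same-numbered libraries correlated at -0.087 to 0.058 in the USP13 and -0.038 to 0.033 in the ZHX2 experiment. With a replicate block, the 6 genes gave 2 higher and 1 lower with sh50, 1 and 0 with sh52, 2 and 4 with sh43 and 1 and 4 with sh45, and all genes called were 2698, 1461, 9231 and 6976. Depth limits CLDN1 in the USP13 experiment (14 to 48 counts per library) and SCNN1A under the ZHX2 hairpins (22 to 55).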

Other observations

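Of 19 transcription factors known for tubule and junction genes, 12 were measured. By edgeR's quasi-likelihood test 3 fell and 9 were not called with sh50, where 21.5% of all genes were called, 11.3% of all genes lower. With sh52 0 of 12 were called by edgeR and 0 by DESeq2, and 1 had an unadjusted edgeR p under 0.05, against 12% of all genes called. With sh43 4 rose and 5 fell, against 68.8% of all genes called, 33.5% higher and 35.3% lower. With sh45 1 rose and 7 fell, against 52.6%, 25.3% higher and 27.3% lower. DESeq2 called 6 with sh45. ELF3, an epithelial ETS factor, fell by 2.27 with sh43 (adjusted p = 1.89e-20), by 1.49 with sh45 (adjusted p = 1.24e-16) and by 0.53 with sh50 (adjusted p = 2.68e-06). ESRRG, an orphan nuclear receptor of the distal tubule, fell by 2.10 with sh43 (adjusted p = 1.6e-05), from 28 to 39 counts per control library to 5 to 13, and by 0.82 with sh45 (adjusted p = 0.0299), a call lost without sh45 replicate 1 or 3 or shCtrl replicate 1 or 2 (adjusted p from 0.0895 to 0.119). VDR, the vitamin D receptor, rose from 1.75 CPM ± 0.607 to 7.39 ± 1.87 with sh43 (adjusted p = 1.05e-07) and read 2.53 ± 0.698 with sh45.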
